A study of Mus musculus with 8 samples.

Results

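The genes of the cytosolic ribosome were followed in thymic epithelial cells (TECs) taken directly from the embryo and in the same kind of cells after culture. Members were all protein-coding mouse genes with an Rpl or Rps symbol of the cytosolic ribosome, together with *Rplp0*, *Rplp1*, *Rplp2*, *Rpsa* and *Fau*, and the rule used no measured value. It gave 83 members among the 56923 genes counted. Of these, 79 reached a minimum of 1 CPM, a gene’s counts scaled to a library size common to all libraries, in at least 3 of the 8 libraries and were tested along with 14504 genes in all. *In vivo* TECs were EpCAM-positive cells sorted from E16.5 thymi and lysed at once. The 2D cells were sorted TECs kept in TEC medium on laminin and collected as a confluent monolayer at day 3. The organoids grew from sorted TECs in Matrigel, a basement membrane hydrogel, in TEC medium, and were collected at day 3 (D3) or day 7 (D7). TEC medium was a defined medium with the growth factor FGF7, and organoids were given thiazovivin, a ROCK inhibitor, at first; sorted cells were collected in TEC medium with serum and thiazovivin. All samples were WT and are labelled as untreated, so time in medium with these agents cannot be told apart from culture itself. Each group held 2 libraries described as biological replicates, and each condition was stated to hold 2 mice. Whether a library pooled several embryos is not given in the sources used here, and p-values measure only the spread between these libraries.

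Cytosolic ribosomes translate nuclear-encoded mRNA. The Rps proteins build the small subunit, which holds the mRNA and decodes it, and the Rpl proteins build the large subunit, which joins amino acids and carries the exit tunnel for the new chain. Because each ribosome takes essentially a single copy of each protein, with more of the acidic stalk proteins, the genes are expressed at high and balanced levels. Their mRNAs begin with a terminal oligopyrimidine (TOP) tract, through which mTOR and LARP1 control their translation, and MYC raises their transcription. Their mRNAs have also been copied back into the genome many times, so that mammalian genomes hold numerous processed pseudogenes of this family.

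The sequences of these genes bear on how they can be counted. The libraries read the 3′ ends of transcripts, so values of different genes were set side by side without a length correction. Near the 3′ end, many members are identical to their copies. All 50-base words of the last 300 coding bases were searched in the GRCm39 genome: 40 of the 83 members had every word also at another locus, 69 had at least 50% of their words elsewhere, and 3 had none. The median member shared words with 8 other loci, and *Rpl7a* shared words with 77, the highest number among members. The last 50 coding bases before the stop codon are shown, 5′ to 3′, in lower case with no part marked, for the members that fell most in D7 organoids (*Rps2*, chr17:24937080-24940904; *Rpl7a*, chr2:26800744-26803335; *Rps23*, chr13:91071077-91085586; *Rps6*, chr4:86748406-86775674) and for members with their highest values there (*Rpl8*, chr15:76788271-76790514; *Rps15*, chr10:80128249-80129955).
Rps2: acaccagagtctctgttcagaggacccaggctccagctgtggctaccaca
Rpl7a: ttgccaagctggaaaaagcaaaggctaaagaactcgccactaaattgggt
Rps23: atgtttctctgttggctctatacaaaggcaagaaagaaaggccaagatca
Rps6: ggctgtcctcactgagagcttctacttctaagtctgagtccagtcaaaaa
Rpl8: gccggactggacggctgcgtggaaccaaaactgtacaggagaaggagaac
Rps15: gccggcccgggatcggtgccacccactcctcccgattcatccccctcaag
The printed word of *Rps2* occurred at 27 other loci, that of *Rpl7a* at 19, that of *Rps23* at 8 and that of *Rps6* at 5, whereas those of *Rpl8* and *Rps15* occurred nowhere else. This did not hold for each member: the word of *Rpl4*, which fell, occurred nowhere else, those of *Rpl23* and *Rps18* at 1 other locus each, and that of *Rpl23a*, which departed upward, at 14.

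The start of transcription shows what the family shares at its other end. The 30 bases around the start of the RefSeq transcript are given for members with different patterns in D7 organoids, with the longest run of pyrimidines in capitals. Sequences came from the RefSeq promoter table (GRCm38.p6), and the GRCm39 position is that of their exact match.
Rpl7a, chr2:26800804-26800833 (+ strand): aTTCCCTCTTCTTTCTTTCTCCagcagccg
Rpl28, chr7:4795949-4795978 (+ strand): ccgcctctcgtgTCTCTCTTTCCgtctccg
Rps6, chr4:86775590-86775619 (− strand): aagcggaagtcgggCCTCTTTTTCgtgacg
Rps2, chr17:24939022-24939051 (+ strand): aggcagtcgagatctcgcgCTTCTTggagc
Rps23, chr13:91071226-91071255 (+ strand): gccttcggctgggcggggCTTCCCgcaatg
Rpl36al, chr12:69230827-69230856 (− strand): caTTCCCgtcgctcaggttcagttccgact
The letters CTTTC, searched on the sense strand within 30 bases on either side of the start, stood in 23 of the 62 members with an entry (37.1%) and in 9.18% of all 27025 genes with an entry. *Rpl7a* and *Rpl28* held these letters and *Rps6*, *Rps2*, *Rps23* and *Rpl36al* did not. No entry was matched for 21 members, and a match is a description of these letters, not of a working TOP tract.

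The 8 libraries held between 5084715 and 7612532 counts. Members took from 4.39% (95% exact binomial interval 4.37 to 4.41) in 2D replicate 2 to 5.64% (5.62 to 5.66) in D3 replicate 2, intervals that cover counting error only. 18S and other nuclear ribosomal RNA genes took from 16.6% in D3 replicate 2 to 24.3% in 2D replicate 2, although the labels describe polyA RNA. All CPM values below were scaled by the trimmed mean of M values (TMM). The 7 markers of thymic epithelium summed to 4546 and 4759 CPM *in vivo* and to 2609 and 2283 in 2D. Sums were 1033 and 915 CPM in D3 organoids and 1153 and 1172 in D7 organoids. The sum hides opposite moves. *In vivo* against 2D, 4 were higher and 3 lower (edgeR adjusted p at most 0.05), against 21.7% and 19.9% of all genes tested. D7 organoids against 2D also gave 4 higher and 3 lower, against 24.4% and 21.1%. The median marker was 3.43 higher on the log2 scale in D7 organoids than in 2D, although the sum was lower there. Thymocyte markers summed to 661 and 292 CPM *in vivo* and to at most 9.29 CPM in culture, and markers of mesenchyme, endothelium, erythroid and myeloid cells to at most 59.7 CPM each. In bulk samples, fewer cells of a type and less RNA per cell cannot be told apart.

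Levels as counted spanned more than 2 orders of magnitude within the family. For members with words at other loci, reads may be missing from these counts. Over the 8 libraries, 16 members averaged above 1000 CPM, 55 lay between 100 and 1000 CPM, and 8 of those tested lay below 100 CPM. The median of the 79 members was 543 CPM. *Rpl23a*, at the mouth of the exit tunnel, was highest with 2627 and 2675 CPM *in vivo*, 2117 and 2069 in 2D, 1641 and 2028 in D3 organoids and 2322 and 2359 in D7 organoids. Next came *Rpl37*, a small zinc-binding protein of the large subunit, with 1998 and 1961 CPM *in vivo*, 2053 and 1735 in 2D, 1329 and 1679 in D3 organoids and 1759 and 1779 in D7 organoids. Both were lowest in D3 replicate 1 and highest *in vivo* or in 2D. *Rpl4*, which lines the exit tunnel, had 1974 and 1524 CPM *in vivo*, 2148 and 1605 in 2D, 2001 and 2094 in D3 organoids and 1215 and 1090.2 in D7 organoids. It was lower in both D7 libraries than in the other 6. The stalk protein *Rplp1* had 1312 and 1234 CPM *in vivo*, 1597 and 1586 in 2D, 1740.0 and 2081 in D3 organoids and 1806 and 2107 in D7 organoids, and here the *in vivo* libraries were the lowest. *Rps12* had 2006 and 1855 CPM *in vivo*, 2324 and 1988 in 2D, 987 and 1492 in D3 organoids and 1259 and 1367 in D7 organoids. *Rps20* had 1698 and 1535 CPM *in vivo*, 1902 and 1808 in 2D, 1003 and 1351 in D3 organoids and 1414 and 1796 in D7 organoids. In these small subunit genes 2D replicate 1 was the highest library and D3 replicate 1 the lowest.

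At the low end, 4 members were not tested. *Rpl10l* had 0 counts in all 8 libraries, which allows up to 3 counts in each. *Rpl3l* and *Rpl39l* had at most 3 counts in any library. These are the germline or muscle paralogs of *Rpl10*, *Rpl3* and *Rpl39*. *Rpl24*, a large subunit protein, had only 0 to 4 counts, and the annotated gene *Gm28037* overlapped 74% of its last 300 coding bases on the same strand. Such overlaps also covered 87% of this stretch in *Rps10* (*Gm49804*), 95% in *Rpl36al* (*Gm49383*) and 100% in *Rpl13a* (*Gm45713*), and each of these 4 overlapping genes was listed at 0 counts in all libraries. The layout of the deposited tables is that of STAR's gene counts, which leave out reads that fall in several genes or align to several places. The values of these members, and of members with words at other loci, are therefore uncertain. Whether strand was used in counting is not given in the sources used here, and 11 members had a gene over part of this stretch on the opposite strand, among them *Rpl28* and *Rps18* over all of it. *Rps10* was the lowest member tested, with 5.40 and 7.05 CPM *in vivo*, 7.82 and 5.75 in 2D, 6.42 and 5.17 in D3 organoids and 7.57 and 9.10 in D7 organoids, while the pseudogenes named after it summed to 98.9 and 144 CPM *in vivo*, 167 and 211 in 2D, 77.6 and 113 in D3 organoids and 157 and 219 in D7 organoids. The copies thus held more reads than the parent gene in every library.

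Summed over the members, levels were 55352 and 52490.3 CPM *in vivo* and 55437 and 50018 CPM in 2D. D3 organoids had 42042 and 51753 CPM, and D7 organoids had 45110.2 and 45724 CPM. On this TMM scale both D7 libraries lay below all *in vivo* and 2D libraries. D3 replicate 1 was then the lowest library of all, and D3 replicate 2 lay between the 2D libraries. As a share of raw counts the order differed. There 2D replicate 2 was lowest at 4.39%, below D3 replicate 1 at 4.41% and D7 organoids at 4.78% and 4.55%. The D3 replicates differed most: replicate 1 was higher in only 10 of 79 members, with a median difference of -0.28 on the log2 scale, against 0.09 *in vivo*, 0.15 in 2D and 0.02 in D7 organoids. With 2 libraries against 2, an exact permutation test of such a sum cannot go below p = 0.333 (two-sided), so no test of it was made.

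**Figure D1:**
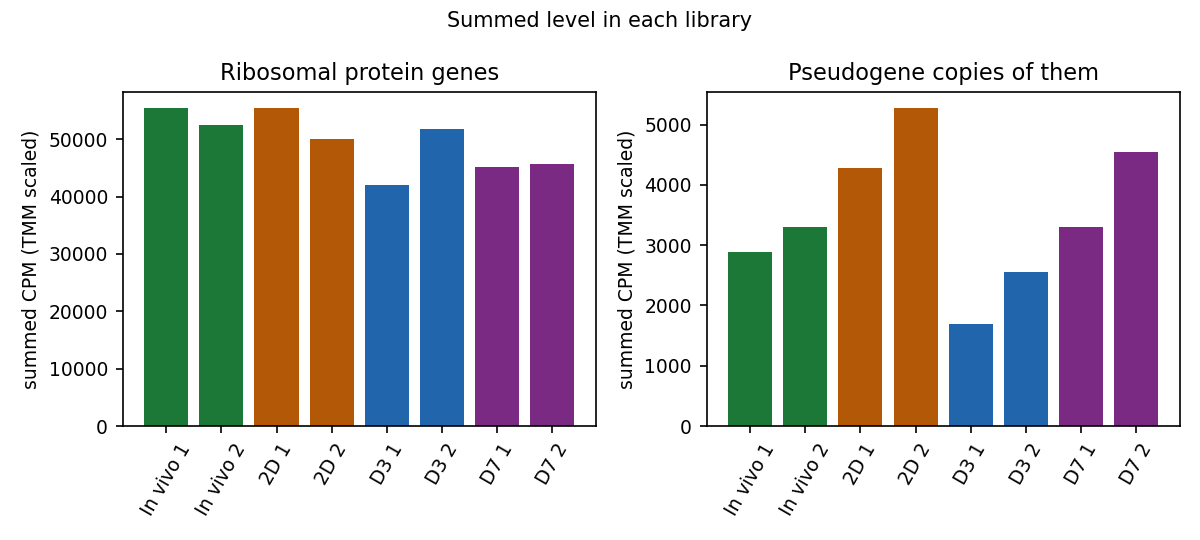
Summed TMM-scaled CPM of the ribosomal protein genes and of the pseudogene copies named after them, a bar for each of the 8 libraries on axes that start at 0, coloured by group. The member sums run from 42042 in D3 replicate 1 to 55437 in 2D replicate 1, and the copies are lowest in D3 organoids.

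Fold changes gave the common shift of the members in each comparison, fitted with edgeR's quasi-likelihood test over all genes and called at an adjusted p of at most 0.05. Between *in vivo* and 2D TECs, 10 of 79 members (12.7%) were higher *in vivo*, against 21.7% of all genes tested, and 4 (5.06%) were lower, against 19.9%. The median member moved by 0.03 on the log2 scale and the median gene by 0.06. Both shares were below those of all genes, and the spread of the family was narrow, with an interquartile range of 0.40 against 1.51 for all genes. The count rested on single libraries: it was 6 and 5 without *in vivo* replicate 1 or 2 and 3 without 2D replicate 2, and the median turned to -0.0013 without *in vivo* replicate 1, -0.053 without 2D replicate 2 and -0.018 without D3 replicate 2. With library size as the only scaling, the split was 18 higher and 2 lower, and with ribosomal RNA genes left out it was 4 and 5.

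Against D3 organoids, 14 members (17.7%) were higher *in vivo* and 2 (2.53%) lower, where all genes gave 14% and 14.1%. The median member was 0.19 higher on the log2 scale, and the median gene 0.01. The 16 calls fell to 5 without *in vivo* replicate 1, 10 without *in vivo* replicate 2 and 4 without D3 replicate 1, and the split was 8 to 3 with library size alone and 10 to 3 without ribosomal RNA genes. Against D7 organoids, 36 members (45.6%) were higher *in vivo*, against 16.8% of all genes, and 3 (3.80%) were lower, against 18%. Here the median member was 0.29 higher on the log2 scale while the median gene moved by -0.01, and 25 in place of 39 members were called without D7 replicate 2. Thymocyte markers moved with all comparisons against *in vivo* TECs, and their part in these counts was not tested.

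The cultures were also compared with each other. Between D3 organoids and 2D, 7 members (8.86%) were higher in D3 organoids and 17 (21.5%) lower, where all genes gave 19.3% and 19.1%. The split rested on single libraries: it was 9 higher and 8 lower without D3 replicate 1 and also without 2D replicate 1, 2 and 14 without 2D replicate 2, and 4 and 29 without D3 replicate 2. The median member was at -0.19 and the median gene at 0.03 on the log2 scale. In D7 organoids against 2D, 30 members (38.0%) were lower and 5 (6.33%) higher, against 21.1% and 24.4% of all genes. The median member was at -0.26 and the median gene at 0.10. The 2D cells were collected at day 3. In this comparison, here and below, culture format and time in culture therefore cannot be told apart. Both comparisons with 2D depended on the scaling, and the TMM factors of the 2D libraries, 0.908 and 0.880, were the lowest of the 8. With library size alone, the median of all genes moved up by 0.26 in D3 and 0.20 in D7 organoids against 2D and by 0.18 *in vivo* against 2D. The split was then 17 higher and 4 lower in D3 organoids and 14 and 22 in D7 organoids. The distance of the median member from the median gene was -0.22 and -0.36 with TMM and -0.21 and -0.36 with library size alone.

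From D3 to D7 organoids, 28 members (35.4%) fell, against 9.91% of all genes tested, and 6 (7.59%) rose, against 10.9%. The median member moved by only -0.06 and the median gene by 0.06 on the log2 scale. The interquartile range of the members was 0.96, close to 0.97 for all genes, where it was 0.40 against 1.09 between *in vivo* TECs and D3 organoids. Members thus separated from each other rather than moving as a block. Without D7 replicate 2, 16 in place of 34 members were called, all of them lower. Without D3 replicate 2, 13 rose, 21 fell and the median turned to 0.0042, and was -0.20 without D3 replicate 1. The 3 comparisons that involve D7 organoids share the same 2 libraries and are therefore not independent of each other. Of the small subunit genes 11 of 33 fell, and of the large subunit genes 17 of 46.

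**Figure D2:**
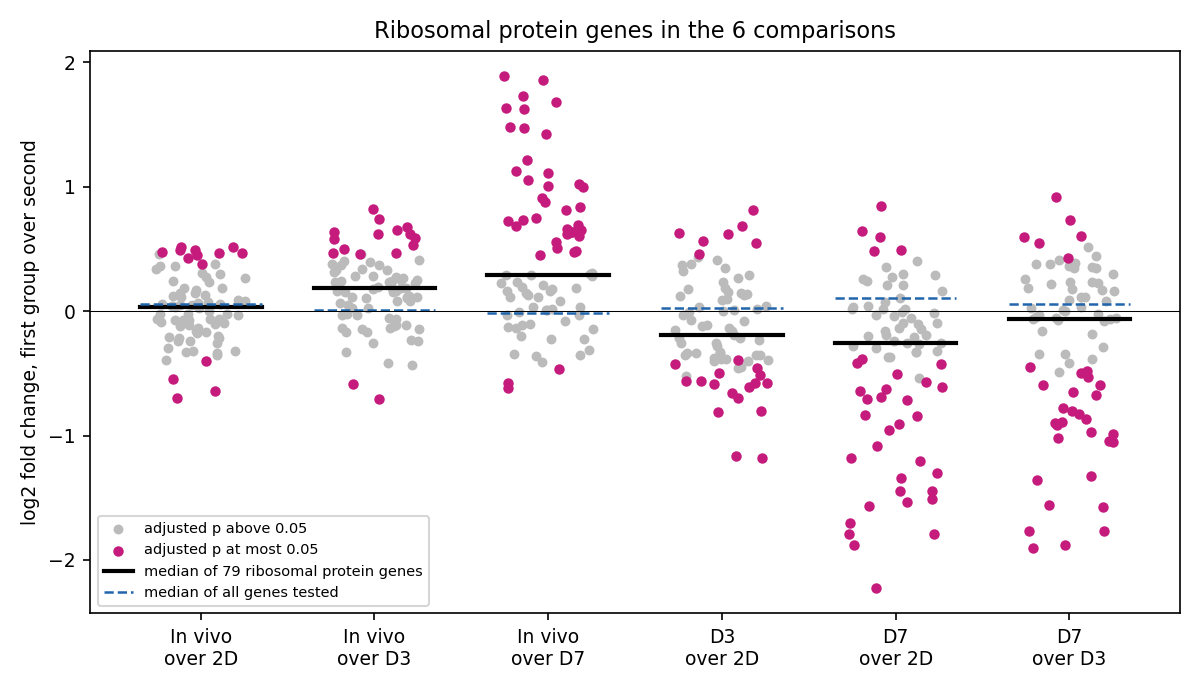
Log2 fold changes of the 79 members in the 6 comparisons, a point for each member, with the medians of the members and of all 14504 genes. The points lie closest together *in vivo* over 2D and over D3 organoids (interquartile range 0.40 in each) and spread widest in D7 over D3 organoids (0.96).

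To find members that left the common shift, the libraries were rescaled by the members themselves (median of ratios over the 79) and tested again over all genes. This scale centres the members near 0 and moves the shares of all genes with it. A member with an adjusted p of at most 0.05 in this fit is called departing, and its log2 fold change on this scale is its departure. From D3 to D7 organoids, 21 members (26.6%) departed downward, where 6.99% of all genes lay lower on this scale, and 10 (12.7%) departed upward, where 12% lay higher. The upward share was thus close to that of all genes and the downward share above it. Those below the shift included, from the largest departure, *Rps2*, *Rpl7a*, *Rps6*, *Rps23*, *Rps27a*, *Rpl10*, *Rpl35a*, *Rps16*, *Rpl23*, *Rpl5*, *Rps18*, *Rpl15*, *Rpl19*, *Rpl29*, *Rpl17*, *Rpl13a*, *Rpl4*, *Rpl28*, *Rps4l* and *Rps4x*, with departures from -1.80 to -0.57. Those above it included *Rpl36al*, *Rpl8*, *Rpl7*, *Rps14*, *Rpl38*, *Rps20*, *Rps25*, *Rps13* and *Rpl23a*, with departures from 1.06 to 0.47. With the summed member counts as library size, the split was 22 lower and 5 higher.

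**Figure D3:**
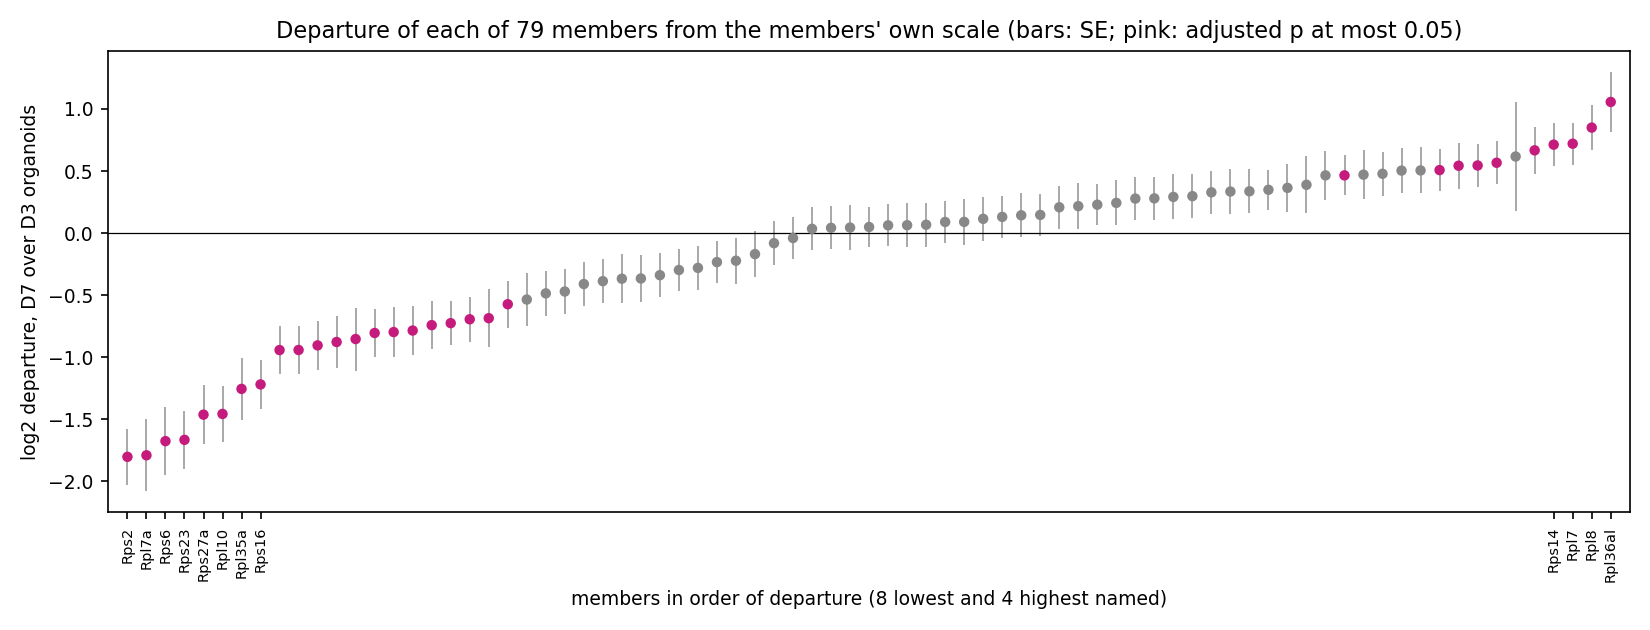
Departure of each of the 79 members in D7 over D3 organoids, ordered by size and named at both ends, with bars of 1 standard error and members at an adjusted p of at most 0.05 in pink. Departures run from -1.80 for *Rps2* to 1.06 for *Rpl36al*, and more members lie far below 0 than far above it.

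*Rps2*, a small subunit protein near the mRNA entry channel, had 775 and 634 CPM *in vivo*, 835 and 633 in 2D, 905 and 993 in D3 organoids and 328 and 177 in D7 organoids. Both D7 libraries were below all others and did not overlap with any group. This was 3.75-fold lower than in D3 organoids, a log2 fold change of -1.91 ± 0.23 (SE), edgeR adjusted p = 2.57e-05, and its departure was -1.80 ± 0.22 (SE), edgeR adjusted p = 7.72e-06. *Rpl7a*, a large subunit protein, had 387 and 362 CPM *in vivo*, 411 and 305 in 2D, 385 and 377 in D3 organoids and 151 and 53.8 in D7 organoids. The 6 other libraries stayed within a narrow range while D7 replicate 2 lay far below D7 replicate 1. The log2 fold change of *Rpl7a* from D3 was -1.88 ± 0.30 (SE), edgeR adjusted p = 0.000371, and its departure was -1.79 ± 0.29 (SE), edgeR adjusted p = 0.000169.

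*Rps6*, the small subunit protein phosphorylated by S6 kinases downstream of mTOR, had 48.7 and 31.6 CPM *in vivo*, 46.7 and 36.8 in 2D, 45.5 and 36.6 in D3 organoids and 13.03 and 10.9 in D7 organoids. Its D7 values were below those of every other library. The counted level of *Rps6* was low for the family, and all words of its coding tail occurred at other loci. The log2 fold change from D3 was -1.77 ± 0.26 (SE), edgeR adjusted p = 0.000197. *Rps23*, which lies in the decoding centre, had 358 and 229 CPM *in vivo*, 453 and 286 in 2D, 262 and 278 in D3 organoids and 93.7 and 64.1 in D7 organoids, again with both D7 libraries lowest. It fell by 1.77 ± 0.24 (SE) on the log2 scale (edgeR adjusted p = 9.78e-05). *Rps27a*, which is made as a fusion with ubiquitin, had 409 and 294 CPM *in vivo*, 439 and 275 in 2D, 293 and 359 in D3 organoids and 139 and 78.9 in D7 organoids and was likewise lowest in D7 organoids. *Rpl10*, a protein that joins the large subunit late in its assembly, had 213 and 191 CPM *in vivo*, 227 and 161 in 2D, 189 and 197 in D3 organoids and 80.3 and 50.02 in D7 organoids. Its D7 values were the only ones under 100 CPM. The log2 fold changes of *Rps27a* and *Rpl10* were -1.57 ± 0.25 and -1.56 ± 0.21 (SE; edgeR adjusted p = 0.000419 and 9.44e-05).

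Upward, *Rpl8*, a large subunit protein close to the peptidyl transferase centre, had 583 and 598 CPM *in vivo*, 669.6 and 703 in 2D, 473 and 584 in D3 organoids and 778 and 982 in D7 organoids. Both D7 libraries were the highest of the 8. They were 1.66-fold above D3 organoids, a log2 fold change of 0.73 ± 0.16 (SE), edgeR adjusted p = 0.00301, and the departure was 0.85 ± 0.18 (SE), edgeR adjusted p = 0.00227. *Rpl7*, another large subunit protein, had 1152 and 1119.7 CPM *in vivo*, 1143 and 1051 in 2D, 762 and 985 in D3 organoids and 1271 and 1384 in D7 organoids, with the D3 libraries lowest and the D7 libraries highest. Its log2 fold change was 0.60 ± 0.15 (SE), edgeR adjusted p = 0.00821. *Rpl36al*, a paralog of *Rpl36a*, had 60.4 and 50.5 CPM *in vivo*, 64.9 and 76.8 in 2D, 21.97 and 40.4 in D3 organoids and 58.4 and 60.5 in D7 organoids. In this gene the D3 libraries stood below the rest and the D7 libraries lay within the range of *in vivo* and 2D, so that the change from D3 (0.92 ± 0.24 (SE), edgeR adjusted p = 0.0111) ended at values found there. Nearly all of its coding tail overlapped *Gm49383*, as given above.

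**Figure D4:**
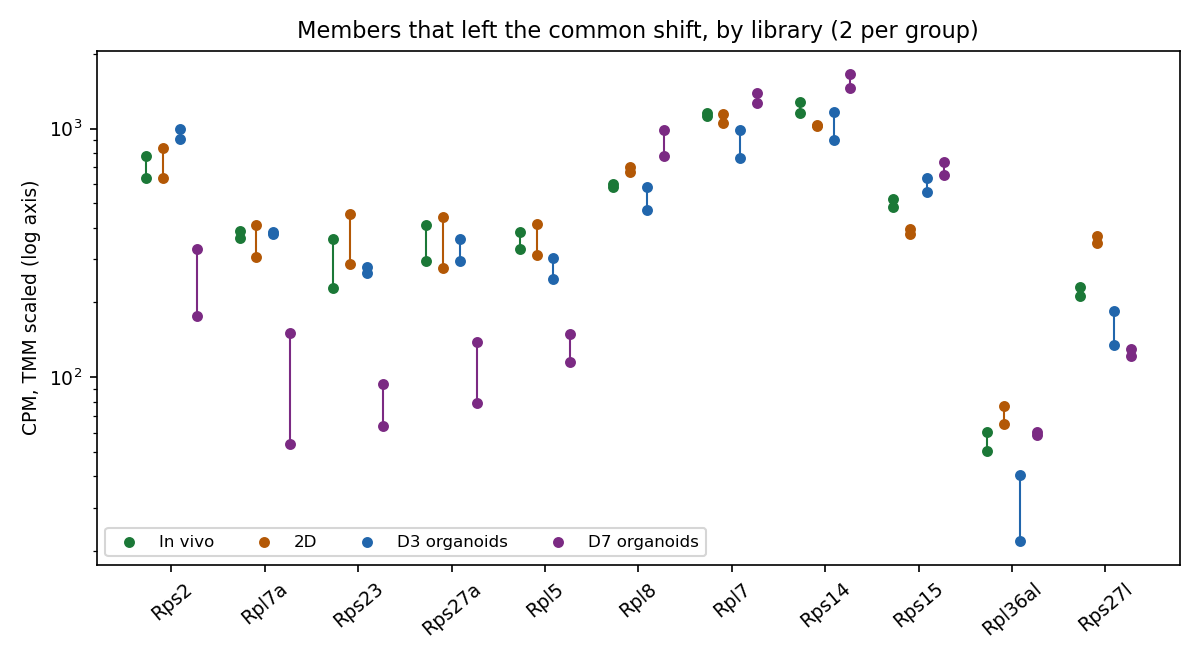
TMM-scaled CPM on a log axis of members that left the common shift, a point for each of the 8 libraries, coloured by group with 2 per group. *Rps2*, *Rpl7a* and *Rps23* have both D7 points below the other 6, and *Rpl8* has both D7 points above them.

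The D7 replicates did not contribute alike. In all 21 members below the shift, D7 replicate 2 was lower than replicate 1, with a median ratio of 0.742, and in all 10 members above it replicate 2 was higher, with a median ratio of 1.11. D7 replicate 2 was the smallest library and had 24.1% of counts in nuclear ribosomal RNA genes, against 20.7% in replicate 1, and the part of this in the result was not tested. Without replicate 2, all 21 and all 10 kept their sign, but of the 21 only 7 (*Rpl10*, *Rpl7a*, *Rps16*, *Rps2*, *Rps23*, *Rps27a* and *Rps6*) were still called departing, and the 10 all missed the threshold. *Rps2* then had a departure of -1.48 (edgeR adjusted p = 0.00039) and *Rpl8* one of 0.62 (edgeR adjusted p = 0.166). Without replicate 1, 18 of the 21 and 5 of the 10 were called.

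Set against all 6 other libraries, with no test, both D7 values were the lowest in 27 of the 79 members, where 10.5% of all genes had this order. Both were the highest in 5 members (among them *Rpl7*, *Rpl8*, *Rps14* and *Rps15*), where 14.3% of all genes did. Departures of D7 organoids from *in vivo* TECs and from 2D, which use the same D7 libraries, are given side by side. Higher *in vivo* than the shift were 20 members (25.3%), against 9.89% of all genes, and lower were 10 (12.7%), against 25.7%. In D7 organoids against 2D, 20 members (25.3%) departed downward and 14 (17.7%) upward, against 14% and 30.8% of all genes. Without D7 replicate 2 these totals were 10 in place of 30 *in vivo* against D7 and 20 in place of 34 in D7 against 2D. They were also 16 without *in vivo* replicate 1 and 21 without 2D replicate 1.

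*Rps23* stood furthest from the shift *in vivo* against D7, at 1.58 ± 0.23 (SE), edgeR adjusted p = 1.41e-05, followed by *Rpl7a* at 1.56 ± 0.29 (SE), edgeR adjusted p = 0.000192 and *Rps6* at 1.42 ± 0.28 (SE), edgeR adjusted p = 0.000324. Against 2D, the leaders below the shift in D7 organoids were *Rps23* at -1.94 ± 0.24 (SE), edgeR adjusted p = 6.05e-07, *Rpl35a* at -1.61 ± 0.25 (SE), edgeR adjusted p = 1.55e-05 and *Rpl7a* at -1.52 ± 0.29 (SE), edgeR adjusted p = 0.000173. *Rpl35a*, a large subunit protein, had 109.8 and 97.9 CPM *in vivo*, 133 and 112 in 2D, 81.1 and 89.8 in D3 organoids and 43.5 and 22.1 in D7 organoids, so that D7 replicate 2 held the lowest of its values. On the other side, *Rps15*, a protein of the small subunit head, had 483 and 521 CPM *in vivo*, 393 and 377 in 2D, 555 and 630.1 in D3 organoids and 653 and 735 in D7 organoids. It was lowest in 2D and highest in D7 organoids, with a departure of 1.12 ± 0.18 (SE), edgeR adjusted p = 2.34e-05 against 2D and -0.77 ± 0.18 (SE), edgeR adjusted p = 0.00154 *in vivo* against D7. *Rps14*, on the platform of the small subunit, had 1151 and 1279.7 CPM *in vivo*, 1023 and 1033 in 2D, 900.2 and 1161 in D3 organoids and 1461 and 1654 in D7 organoids. Its D7 values were the highest, and its departure against 2D was 0.87 ± 0.18 (SE), edgeR adjusted p = 0.000331. *Rpl37a*, a zinc-binding large subunit protein, had 489 and 473 CPM *in vivo*, 351 and 323 in 2D, 419 and 509 in D3 organoids and 564 and 491 in D7 organoids, with the 2D libraries lowest and a departure of 0.92 ± 0.18 (SE), edgeR adjusted p = 0.000198 against 2D.

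Members that departed downward from D3 to D7 organoids were mostly those with low counted levels *in vivo*. Ordered by *in vivo* CPM, 14 of the 26 lowest, 5 of the 26 in the middle and 2 of the 27 highest members departed downward, and 2, 2 and 6 departed upward. The median *in vivo* level was 289 CPM for the 21 below the shift, 975 CPM for the 10 above it and 659 CPM for the other 48. They also had more copies: the median number of other loci with shared coding words was 12, 4.5 and 8 in these sets. Over the 79 members, Spearman's rho of the departure was 0.36 with the *in vivo* level, -0.33 with the number of other loci, 0.26 with the GC share of the last 300 coding bases and -0.28 with coding length. All points share the same 4 libraries, members are not independent, and these values are descriptions. For D7 organoids against 2D, rho with GC share was 0.48 and with loci -0.30.

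**Figure D5:**
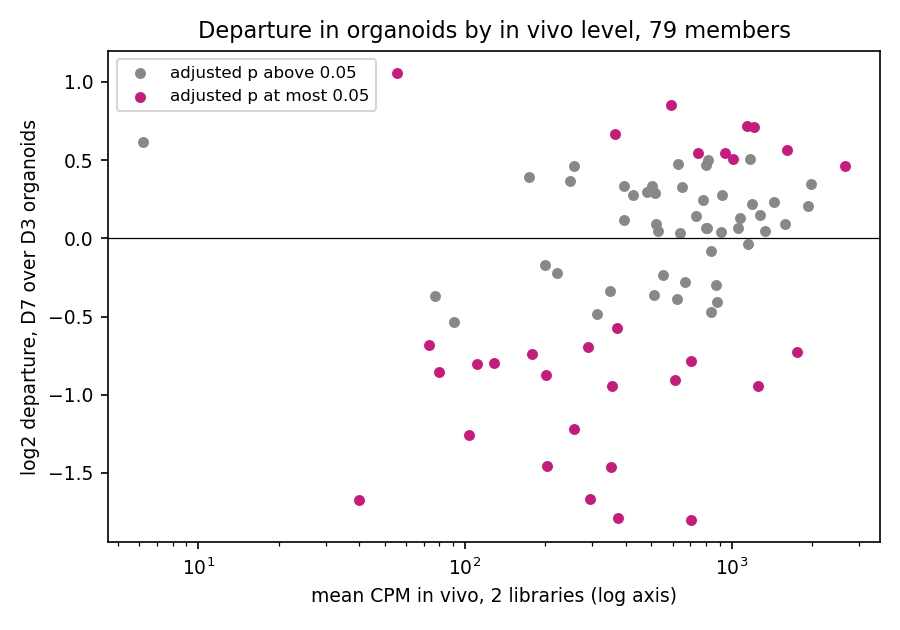
Departure in D7 over D3 organoids (log2) against the mean *in vivo* CPM (log axis) of the 79 members, with those at an adjusted p of at most 0.05 in pink. Most of the pink points below 0 lie at lower levels (median 289 CPM) and those above 0 at higher levels (median 975 CPM).

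Other properties were counted in the same sets. A snoRNA gene lay inside 10 of the 21 members below the shift, 3 of the 10 above it and 16 of the 48 others. The letters CTTTC were near the start in 7 of the 16 members below the shift with an entry, 1 of 4 above it and 14 of 38 others. The 21 were split into 9 small and 12 large subunit genes, and the 10 into 5 and 5. Of the 79 members, 26 departed in none of the 6 comparisons, among them *Rplp0*, *Rpl11*, *Rpl22*, *Rps19*, *Rps3*, *Rpl37* and *Rps27*. For all genes this number was not counted, so it cannot be called many or few. The members set this scale, so staying near it is in part built in.

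Because reads of a member and its copies cannot be fully separated, the rows named as pseudogenes of members were followed too. There were 318 such rows for 63 members, of which 85 passed the filter, and *in vivo* their sum was 5.74% of that of the members. They summed to 2891 and 3299.8 CPM *in vivo*, 4284 and 5277 in 2D, 1685 and 2555 in D3 organoids and 3304 and 4541 in D7 organoids. The copies were lowest in D3 organoids. From D3 to D7, 26 of 85 were called higher and 2 lower, where 10.9% and 9.91% of all genes were (median of the copies 0.70 on the log2 scale). In D3 organoids against 2D, 1 was higher and 43 were lower, against 19.3% and 19.1% of all genes. Among the most abundant, *Rpl7a-ps7* had 198 and 281 CPM *in vivo*, 366 and 485 in 2D, 154 and 214 in D3 organoids and 261 and 249 in D7 organoids, so that its D7 libraries exceeded those of *Rpl7a* itself.

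The counts of the named copies were then added to their parents, an alternative chosen after seeing the data. Other matching loci were left out, so the sums are not complete. *Rps2* shared words with 63 other loci and had 12 named copies, and *Rps23* with 13 and 2. Of the members below the shift from D3 to D7 organoids 17 of 21, and of those above it 6 of 10, were still called departing, and called members were split into 12 higher and 23 lower in place of 6 and 28. *Rps2* and *Rps23* still fell, by 1.57 and 1.56 on the log2 scale (edgeR adjusted p = 1.52e-05 and 0.000126). *Rpl7a* moved from -1.88 to -0.66 (edgeR adjusted p = 0.00647). *Rps6*, whose copies summed to 60.7 and 66.7 CPM *in vivo*, 93.3 and 113 in 2D, 31.9 and 50.9 in D3 organoids and 49.1 and 65.4 in D7 organoids, moved from -1.77 to -0.25 and was no longer called (edgeR adjusted p = 0.32). *Rpl10a*, an L1 stalk protein, turned from -0.65 to 0.61 (edgeR adjusted p = 0.0209). The call of *Rps6* and the direction of *Rpl10a* in D7 organoids thus held for their own rows and not for the sum with their copies.

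Away from D7 organoids, few members left the shift. *In vivo* against 2D, 2 members (2.53%) were above it and 3 (3.80%) below, against 19.8% and 19.3% of all genes. *In vivo* against D3 organoids, 2 (2.53%) were above and 5 (6.33%) below, against 9.71% and 18.1%. With summed member counts as library size, these were 1 and 3, and 1 and 5. In D3 organoids against 2D, 11 (13.9%) were above and 6 (7.59%) below, against 22.5% and 14%. These shares of members were below those of all genes in all 3 comparisons. The members set this scale, so that order is in part built in. The 5 departures *in vivo* against 2D fell to between 1 and 3 without either *in vivo*, either 2D or either D7 library and rose to 15 and 17 without D3 replicate 1 or 2. The 7 *in vivo* against D3 became 2 without either *in vivo* library, 3 without D3 replicate 1, 14 without D3 replicate 2 and 4 without D7 replicate 2, and the 17 in D3 against 2D became 9 without 2D replicate 2.

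*Rps27l*, a paralog of *Rps27* whose gene is a p53 target, was higher in 2D than in any other group. It had 231 and 212 CPM *in vivo*, 370.4 and 347 in 2D, 135 and 185 in D3 organoids and 121 and 130.5 in D7 organoids. Both 2D libraries were above the other 6, and both D7 libraries were the lowest. Its log2 fold change was -0.70 ± 0.16 (SE), edgeR adjusted p = 0.00244 *in vivo* against 2D, and its departure there was -0.73 ± 0.19 (SE), edgeR adjusted p = 0.00301. In D3 and D7 organoids against 2D its log2 fold changes were -1.17 ± 0.17 and -1.51 ± 0.17 (SE; edgeR adjusted p = 2.55e-05 and 1.4e-06). *Rps27* itself had 495 and 547 CPM *in vivo*, 479 and 446 in 2D, 384 and 549 in D3 organoids and 484 and 429 in D7 organoids and departed in no comparison. *Rpl19* and *Rpl14* were also above the shift in 2D. *Rpl19*, a large subunit protein, had 113 and 108 CPM *in vivo*, 187 and 159 in 2D, 126 and 139 in D3 organoids and 75.8 and 64.5 in D7 organoids, with a departure *in vivo* against 2D of -0.67 ± 0.19 (SE), edgeR adjusted p = 0.00784. For *Rpl14* this was -0.58 ± 0.18 (SE), edgeR adjusted p = 0.0147. Below the shift in 2D were *Rpl37a*, at 0.48 ± 0.18 (SE), edgeR adjusted p = 0.0338, and *Rpl3*, at 0.45 ± 0.17 (SE), edgeR adjusted p = 0.04.

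In D3 organoids, *Rpl28* stood above the shift. This large subunit gene had 288 and 289.6 CPM *in vivo*, 216 and 196 in 2D, 345 and 380.4 in D3 organoids and 225 and 191 in D7 organoids, and the D3 libraries were the highest. Its log2 fold change against 2D was 0.82 ± 0.15 (SE), edgeR adjusted p = 0.000323. *Rpl41*, the smallest ribosomal protein, had 205 and 194 CPM *in vivo*, 179 and 151 in 2D, 228 and 304 in D3 organoids and 209 and 227 in D7 organoids, with a departure against 2D of 0.85 ± 0.19 (SE), edgeR adjusted p = 0.00098. *Rpl29* had 129 and 128 CPM *in vivo*, 100.02 and 85.9 in 2D, 141 and 148 in D3 organoids and 85.1 and 69.00 in D7 organoids, with a departure against 2D of 0.80 ± 0.20 (SE), edgeR adjusted p = 0.00286. In *Rpl29* the *in vivo* libraries lay between those of 2D and D3. On the other side, *Rpl34* had 767 and 788 CPM *in vivo*, 840.1 and 795 in 2D, 370.3 and 561 in D3 organoids and 484 and 528 in D7 organoids, with D3 replicate 1 lowest, and a departure of -0.67 ± 0.18 (SE), edgeR adjusted p = 0.00602 against 2D. *Rpl32* had 1111 and 1223 CPM *in vivo*, 1166 and 1204 in 2D, 575 and 882 in D3 organoids and 883 and 1013 in D7 organoids, and *in vivo* against D3 its departure was 0.50 ± 0.18 (SE), edgeR adjusted p = 0.0467. For *Rpl34* that departure was 0.56 ± 0.18 (SE), edgeR adjusted p = 0.0239. Below the shift *in vivo* against D3 were *Rpl27a* (-0.89 ± 0.20 (SE), edgeR adjusted p = 0.00143), *Rplp1* (-0.78 ± 0.17 (SE), edgeR adjusted p = 0.00102) and *Rps2* (-0.63 ± 0.22 (SE), edgeR adjusted p = 0.0329).

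Functional groups within the family behaved as follows. The acidic stalk, *Rplp0* with *Rplp1* and *Rplp2*, recruits elongation factors to the ribosome. Stalk genes missed the threshold between cultures, and only *Rplp1* was called against *in vivo* TECs, where it was lower *in vivo* than in D3 (-0.59 ± 0.14 (SE), edgeR adjusted p = 0.00496) and in D7 organoids (-0.62 ± 0.14 (SE), edgeR adjusted p = 0.00281). *Rplp0* had 904 and 935 CPM *in vivo*, 1019.8 and 1051 in 2D, 700.0 and 922 in D3 organoids and 918 and 895 in D7 organoids. In this gene D3 replicate 1 was the lowest library and the groups otherwise stayed close. The members made as fusions with ubiquitin or a ubiquitin-like protein diverged: *Rps27a* was called lower in D7 organoids in each comparison with them, while *Fau* was called only against 2D, *in vivo* (-0.40 ± 0.15 (SE), edgeR adjusted p = 0.0433) and in D3 organoids (-0.56 ± 0.15 (SE), edgeR adjusted p = 0.00725), and was at 0.36 ± 0.15 (SE) from D3 to D7 organoids. The proteins that carry 5S rRNA and can bind MDM2 diverged as well. *Rpl5* had 384 and 328 CPM *in vivo*, 415 and 309.8 in 2D, 249.6 and 301 in D3 organoids and 149.6 and 115 in D7 organoids and was lowest in D7 organoids, with -1.05 ± 0.18 (SE), edgeR adjusted p = 0.000712 from D3. *Rpl11* had 1203 and 1104 CPM *in vivo*, 989 and 880.1 in 2D, 908 and 1167 in D3 organoids and 936 and 927 in D7 organoids and was called in no comparison.

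Of the paralogs that could be tested, *Rps4l* had 74.2 and 72.2 CPM *in vivo*, 69.8 and 42.5 in 2D, 80.6 and 69.2 in D3 organoids and 44.8 and 42.3 in D7 organoids and its X-linked partner *Rps4x* had 401 and 342 CPM *in vivo*, 376 and 278 in 2D, 414 and 418 in D3 organoids and 289 and 232 in D7 organoids. Both fell from D3 to D7 organoids, by 0.78 and 0.67 on the log2 scale (edgeR adjusted p = 0.0153 and 0.00944), and 16.3% and 95.6% of the words of their coding tails are found at other loci. *Rpl36a* had 683 and 647 CPM *in vivo*, 617 and 486 in 2D, 546 and 571 in D3 organoids and 421 and 434 in D7 organoids, without the D3 low seen in *Rpl36al*. *Rpl39*, a small protein of the exit tunnel, had 913 and 846 CPM *in vivo*, 709 and 557 in 2D, 485 and 688 in D3 organoids and 443 and 369 in D7 organoids and was called higher *in vivo* in all 3 comparisons.

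Of the members with known roles outside the ribosome, *Rpl22* and *Rps19* departed in no comparison, while *Rpsa*, *Rpl38* and, as given above, *Rps6* departed in D7 organoids. *Rpsa*, also a cell surface receptor for laminin, had 414 and 439.9 CPM *in vivo*, 535 and 513 in 2D, 432 and 511 in D3 organoids and 530.2 and 530.5 in D7 organoids. The 2D cells had values like those of D7 organoids, and *Rpsa* was called in no comparison. On the scale of the members, however, it lay below the shift *in vivo* against D7 organoids (-0.62 ± 0.17 (SE), edgeR adjusted p = 0.00802). *Rpl22*, needed for normal T-cell development, had 873 and 744 CPM *in vivo*, 1015 and 914 in 2D, 688 and 840.1 in D3 organoids and 739 and 737 in D7 organoids. It was highest in 2D and was called lower in D7 organoids than there (-0.39 ± 0.15 (SE), edgeR adjusted p = 0.0428). *Rps19*, which is mutated in Diamond-Blackfan anaemia, had 643 and 614 CPM *in vivo*, 709.8 and 631 in 2D, 433 and 629 in D3 organoids and 641 and 717 in D7 organoids and was called nowhere. *Rpl38*, linked to selective translation of *Hox* mRNAs, had 332 and 397 CPM *in vivo*, 403 and 386 in 2D, 228 and 324 in D3 organoids and 391 and 416 in D7 organoids. It was lowest in D3 replicate 1, and its log2 fold change was -0.51 ± 0.17 (SE), edgeR adjusted p = 0.023 against 2D and 0.54 ± 0.17 (SE), edgeR adjusted p = 0.0295 in D7 against D3 organoids, where its departure was 0.67 ± 0.19 (SE), edgeR adjusted p = 0.0162.

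Other genes of the pathway, from lists chosen with earlier results of these data known, gave the following counts, to be read against the 9.91% of all genes that fell and the 10.9% that rose from D3 to D7 organoids. Of 40 ribosome biogenesis genes, 13 fell from D3 to D7 organoids and the other 27 did not pass the test, with a median of -0.33 on the log2 scale. *Gar1*, an H/ACA snoRNP protein, had 61.1 and 50.2 CPM *in vivo*, 48.9 and 41.2 in 2D, 65.4 and 61.2 in D3 organoids and 20.5 and 9.29 in D7 organoids and a log2 fold change of -2.05 ± 0.27 (SE), edgeR adjusted p = 8.2e-05. *Fbl*, the box C/D methyltransferase fibrillarin, had 39.2 and 37.8 CPM *in vivo*, 23.1 and 12.99 in 2D, 40.1 and 43.2 in D3 organoids and 14.1 and 9.89 in D7 organoids and a log2 fold change of -1.77 ± 0.27 (SE), edgeR adjusted p = 0.000287. In *Gar1* both D7 libraries were the lowest, and in *Fbl* they overlapped with those of 2D. These 2 genes are examples and not the most abundant of the list. *Ncl* was far more abundant, with 2525 and 1644.5 CPM in D3 organoids and 1535 and 1621 in D7 organoids. Of 17 RNA polymerase I genes, 4 fell and the other 13 did not pass the test. Of 17 other TOP mRNAs, 6 fell and 4 rose from D3 to D7, and against 2D 10 were lower in D7 organoids, against 21.1% of all genes, and the other 7 did not pass the test. From D3 to D7, *Naca* had a log2 fold change of -1.13 ± 0.18 (SE), edgeR adjusted p = 0.000399 and *Tpt1* of -0.88 ± 0.18 (SE), edgeR adjusted p = 0.00264, whereas *Eef1a1* had 1.12 ± 0.20 (SE), edgeR adjusted p = 0.000752.

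*Rps3a1*, a small subunit gene outside the symbol rule, had 506 and 370.1 CPM *in vivo*, 448 and 314 in 2D, 396 and 412 in D3 organoids and 249 and 179.5 in D7 organoids, with a log2 fold change from D3 to D7 of -0.91 ± 0.20 (SE), edgeR adjusted p = 0.00382, in the range of the members below the shift. *Rack1*, a scaffold protein on the small subunit, had 892 and 967 CPM *in vivo*, 1099 and 977 in 2D, 588 and 846 in D3 organoids and 764 and 789 in D7 organoids and 0.11 ± 0.16 (SE), edgeR adjusted p = 0.68. Of 76 mitochondrial ribosomal protein genes, 9 fell and 2 rose from D3 to D7, and their median was -0.06. The share that fell was close to the 9.91% of all genes, and the share that rose was below 10.9%. Of 18 genes of mTOR and TOP control, 1 fell (*Larp1*, -0.56 ± 0.15 (SE), edgeR adjusted p = 0.0144) and 2 rose. Of 10 MYC family genes, 2 fell, among them *Myc* with 17.4 and 12.1 CPM *in vivo*, 16.9 and 9.47 in 2D, 9.13 and 9.65 in D3 organoids and 2.11 and 2.97 in D7 organoids and -1.91 ± 0.43 (SE), edgeR adjusted p = 0.00438, and 2 rose. All 12 proliferation genes fell from D3 to D7 organoids and all 12 were higher in D3 organoids than in 2D, against 9.91% and 19.3% of all genes. Their part in the changes of the members was not tested.

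Of 10 genes of ribosomal stress and p53, 7 were lower *in vivo* than in 2D and 1 higher, against 19.9% and 21.7% of all genes, and in D7 organoids against 2D 7 were lower and 1 higher, against 21.1% and 24.4%. *Cdkn1a*, the cell cycle inhibitor p21, had 21.8 and 22.3 CPM *in vivo*, 519 and 589.7 in 2D, 107 and 58.3 in D3 organoids and 47.8 and 56.9 in D7 organoids. *Mdm2*, which degrades p53, had 81.98 and 88.3 CPM *in vivo*, 186 and 158 in 2D, 82.5 and 82.2 in D3 organoids and 63.02 and 60.3 in D7 organoids. Both were highest in 2D, as were *Rps27l* and *Rpl19*. A link between these levels was not tested.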

How the data were processed

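Bulk RNA sequencing was performed with the QuantSeq 3′ method on 8 libraries of mouse TECs, 2 in each of 4 groups taken from the sample labels. Alignment with STAR against GRCm39 was done by the authors, and the deposited values are raw, unnormalized counts of each Ensembl gene. The strand setting is not given in the sources used here. Of the 56923 genes, 56236 were matched to GENCODE vM39 and 687 were not. Libraries held 5084715 to 7612532 counts, so that counting error is small beside the spread between replicates for most members. Replicates differed by more than sampling noise (a chi-square of 7.43 to 9.42 for each degree of freedom).

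The 14504 genes that reached 1 CPM in 3 or more of the 8 libraries were scaled by TMM and tested with edgeR 4.0.16 in R 4.3.3 (quasi-likelihood, 4 group means in 1 model, Benjamini-Hochberg over all genes, threshold 0.05). Departures were tested the same way with library sizes set by the median of ratios over the members. CPM values are TMM scaled, and differences are log2 fold changes of the first group over the second, given with standard errors. Coding words came from CCDS coding sequences and GRCm39, start windows from RefSeq. Alternatives were DESeq2 1.42.0, limma-voom (limma 3.58.1), other scalings and filters, a replicate block, leaving out each library, members with little shared sequence, and copies added. The last 2 were in part chosen after seeing the data. The tests were checked for recovery of set fold changes in simulated counts. These held no outlying library and no reads shared between loci, so the check does not bear on either.

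The members, the gene lists and the tests were chosen with earlier results of these data known. Members named are the 6 with the highest mean CPM and the sublists by function. Named too are the 3 with the largest departure in each direction of each comparison. The members counted in 1 direction from D3 to D7 organoids were chosen after their values were seen. So were the few others named (*Rpl10a*, *Rps10*, *Rpl13a*, *Rpl24*). Genes named from the other lists are examples and do not stand for their lists. Protein sequences were not used here. Some members are counted but not reported by name here.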

Additional observations from a re-analysis of the deposited data

How the results depend on the processing

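The 6 comparisons were repeated under each alternative. Counts of called members stayed within 1.5 times the reported value under DESeq2 size factors, library size alone, limma-voom, the DESeq2 Wald test, both other filters, the replicate block and added pseudogene copies. The exception was *in vivo* against 2D without ribosomal RNA genes, with 9. These counts take both directions together and do not show a change of direction. With library size alone, the split in D3 organoids against 2D turned from mostly lower to mostly higher, as given above. Departing members *in vivo* against 2D were 9 with limma-voom, and *in vivo* against D3 organoids they were 14 with limma-voom and 11 with the replicate block. With library size alone, the median member was at 0.21 *in vivo* against 2D, 0.074 in D3 organoids against 2D and -0.052 in D7 organoids against 2D. For the 11 tested members with under 50% of their coding words elsewhere, a set chosen after seeing the data, the median was -0.21 *in vivo* against 2D, -0.38 in D3 organoids against 2D and -0.37 in D7 organoids against 2D. A single tested member had no such words, so no median of that set is given. In D7 against D3 organoids the 11 had a median of 0.03, with 3 departing downward and 3 upward. The 68 other tested members had a median of -0.07, with 18 departing downward and 7 upward. Of all genes, 6.99% lay lower and 12% higher on the scale of the members. The cause of these differences was not tested, except that the set of 11 holds fewer members.

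Leaving out each library in turn gave, for *in vivo* against 2D, 3 to 19 called, 1 to 17 departing and medians of -0.05 to 0.12. For *in vivo* against D3 organoids these were 4 to 21, 2 to 14 and 0.07 to 0.25. For *in vivo* against D7 organoids they were 25 to 41, 10 to 39 and 0.29 to 0.32. For D3 organoids against 2D they were 16 to 33, 9 to 23 and -0.33 to -0.05. For D7 organoids against 2D they were 25 to 39, 20 to 41 and -0.30 to -0.18. For D7 against D3 organoids they were 16 to 34, 7 to 32 and -0.20 to 0.0042. A group left with 1 library was assumed to vary like the others.

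With the replicate block, called members were 16 (*in vivo* against 2D), 22 (against D3), 40 (against D7), 33 (D3 against 2D), 38 (D7 against 2D) and 40 (D7 against D3). Deviations of same-numbered libraries correlated at 0.04 to 0.15 over 14504 genes, not all over 0.1, and the libraries were treated as unpaired. Whether same-numbered libraries share embryos or a day is not given in the sources used here. Of 96 named calls under 14 settings each, 0 reversed, 139 kept their direction but missed the threshold, and 1205 kept both. *Rpl10a*, named after its values were seen, was not among the 96, and turned from -0.65 to 0.61 in D7 against D3 organoids with copies added.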
